A study of Mus musculus with 8 samples.

Results

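Scavenger receptors of tumor-associated macrophages (TAMs) were examined as a set of 10 genes: Marco, Msr1, Colec12, Cd36, Scarb1, Scarb2, Cd68, Stab1, Mrc1 and Cd163. The members were taken by gene symbol and not by a cut-off on their values, but they were chosen with earlier results of these data known. All 10 were found among the 26939 genes of the joined count tables. The bulk RNA-seq covered live cells that were CD45+, CD11b+, F4/80+ and Gr-1-, sorted on day 21 from tumors of EO771, a mouse breast cancer cell line grown in female mice 8 to 14 weeks of age. WT mice were C57BL/6J, and Unc93b1 3d/3d mice carry a point mutation on both alleles of the chaperone that brings nucleic acid-sensing Toll-like receptors to the endosome, so that these receptors do not work in any cell of the mouse. In each genotype, 2 libraries came from control mice and 2 from mice given 100 µg of αMARCO (rat IgG1, clone ED31) on days 3, 6, 9 and 12 after tumor inoculation. Control libraries are labelled untreated or PBS, whereas the treatment protocol names a rat IgG1 isotype antibody, and the sources do not settle which injection control mice received. Each control library was pooled from 3 mice, and whether the αMARCO libraries were pooled is not given in the sources used here. The genotype of replicate 2 of the Unc93b1 3d/3d control group is written 3d/4d in 1 label and 3d/3d in its title, and its title was followed. With 2 libraries per group, p-values measure only the spread between these libraries.

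Scavenger receptors are surface or lysosomal proteins through which macrophages take up modified lipoproteins, dying cells, microbes and extracellular debris. MARCO is a trimeric class A receptor with a collagen-like stalk, found on macrophages of the splenic marginal zone, the peritoneum and the lung and on part of the TAMs in tumors. It is the receptor that αMARCO binds, and scavenger receptors can carry nucleic acids to the endosomal Toll-like receptors that depend on UNC93B1.

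The 250 bases upstream of the transcription start are shown for the antibody target Marco, for Cd68 as the member with the highest level and for Stab1 as the member called in both genotype and treatment comparisons. The sequences are from RefSeq on the build GRCm38.p6, which had entries for 7 of the 10 members, and none of the windows shown overlaps an annotated exon. All 3 are on the minus strand and read 5′ to 3′ towards the gene: Marco at chr1:120505025-120505274, Cd68 at chr11:69666171-69666420 and Stab1 at chr14:31168642-31168891. Capitals mark letters that match 1 of the motifs searched on both strands.
Marco: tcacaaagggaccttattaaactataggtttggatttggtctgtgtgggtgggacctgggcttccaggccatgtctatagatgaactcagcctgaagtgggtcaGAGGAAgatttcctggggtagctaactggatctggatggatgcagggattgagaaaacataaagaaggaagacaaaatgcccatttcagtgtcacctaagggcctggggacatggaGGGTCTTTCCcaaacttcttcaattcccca
Cd68: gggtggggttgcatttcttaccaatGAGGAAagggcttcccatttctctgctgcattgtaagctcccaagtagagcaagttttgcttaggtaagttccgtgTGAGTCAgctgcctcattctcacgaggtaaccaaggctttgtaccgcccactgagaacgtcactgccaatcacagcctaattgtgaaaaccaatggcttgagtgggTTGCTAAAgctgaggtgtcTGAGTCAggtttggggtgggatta
Stab1: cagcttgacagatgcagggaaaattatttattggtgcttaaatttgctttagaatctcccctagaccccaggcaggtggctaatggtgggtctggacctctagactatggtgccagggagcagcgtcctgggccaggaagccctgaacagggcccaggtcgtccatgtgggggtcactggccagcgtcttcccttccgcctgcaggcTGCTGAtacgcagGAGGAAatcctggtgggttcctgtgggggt
The Marco window holds the PU.1 core GAGGAA from base -146 and a kappaB form from base -30, counted back from the start site. The Cd68 window holds GAGGAA from base -225, the AP-1 form TGANTCA from bases -149 and -24 and the C/EBP form TTGCNNAA from base -43. The Stab1 window holds the MAF motif TGCTGA from base -43 and GAGGAA from base -30. In 32851 promoters of the same length, GAGGAA was found in 23.3%, TGCTGA in 16.1%, TTGCNNAA in 9.56%, TGANTCA in 6.75% and the kappaB form in 1.41%. The MAF motif ends in the letters with which the AP-1 form begins, so both could be marked on the same bases, which was not the case here. The letters TATAAA, held by 12.4% of promoters, and the E-box CACGTG, held by 6.02%, were not in these windows. A match describes letters only, and binding of a factor was not measured.

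The library totals ranged from 15182618 to 26411936 counts, so that 3 counts, the smallest amount taken as detected, corresponded to 0.114 to 0.198 CPM, counts scaled to a common library total with TMM factors from edgeR. Intervals and this floor cover counting error only. The labelled cell type was checked with 12 macrophage markers, among them Csf1r, Adgre1 and C1qa, and each was detected in every library. Of 10 neutrophil and Gr-1 markers, Ly6g was at 0.133 to 0.844 CPM, S100a9 at 0.900 to 24.4 CPM and Csf3r, which monocytes also express, at 194 to 360 CPM, most of the list's sum of 208 to 368 CPM. Ly6c2, whose protein Gr-1 antibodies can also bind, was at 86.1 to 184 CPM. The adipocyte gene Adipoq was at most 0.0444 CPM. Unc93b1 itself was at 849.6 to 965 CPM in WT control and 539 to 659 CPM in Unc93b1 3d/3d control libraries, which does not check the labels, since a point mutation leaves the transcript in place. Over 16620 genes, the replicates of Unc93b1 3d/3d αMARCO lay 131.6 apart (Euclidean distance of log2 CPM), compared with 56.2 to 74.6 in the other 3 groups. The comparisons with that group are therefore also given without each of its libraries, which leaves 1 library assumed to vary like the other groups.

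Levels of the receptors can be compared between genes only per length. The deposited FPKM (fragments scaled to gene length and an adjusted library total) spanned more than 3 orders of magnitude on the log10 scale. Cd68, the lysosomal glycoprotein macrosialin, had a mean of 722 FPKM over the 8 libraries (range 597 to 829). Mrc1, the mannose receptor CD206, followed at 221 FPKM (137 to 397), then Msr1 at 101 FPKM (69.1 to 133) and Stab1 at 84.7 FPKM (30.6 to 137). The middle of the order was formed by Scarb2 at 16.5 FPKM, Scarb1 at 11.2 FPKM, Cd36 at 9.31 FPKM and Cd163 at 6.04 FPKM. Colec12 at 0.538 FPKM and Marco at 0.180 FPKM came last. Neighbours in this order with overlapping ranges over the 8 libraries were Msr1 and Stab1, Scarb2 and Scarb1, Scarb1 and Cd36, Cd36 and Cd163, and Colec12 and Marco. Scarb2 was nevertheless above Scarb1 in 8 of 8 libraries. Cd68 and Mrc1 did not overlap with each other, and Mrc1 did not overlap with Msr1.

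**Figure D1:**
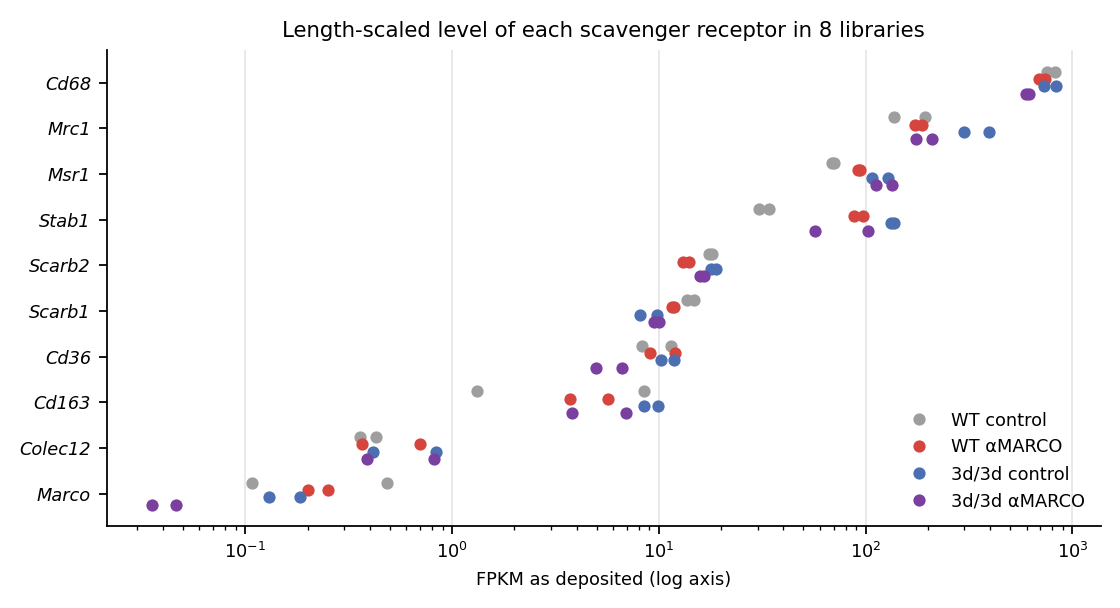
Deposited FPKM (log axis) of the 10 scavenger receptors, one point per library, colored by group (3d/3d: Unc93b1 3d/3d). Cd68 lies between 597 and 829 FPKM, and Marco between 0.0353 and 0.482 FPKM.

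Marco (ENSMUSG00000026390, GRCm38 chr1:120474538-120505024, minus strand) was close to the limit of detection. The 8 libraries held 55 Marco counts among 155911211. WT control libraries had 4 and 17 counts (0.211 and 0.942 CPM), and Unc93b1 3d/3d control libraries 4 and 7 (0.251 and 0.355 CPM). WT αMARCO libraries had 10 and 10 counts (0.483 and 0.391 CPM), and Unc93b1 3d/3d αMARCO libraries 2 and 1 (0.0888 and 0.0684 CPM). The last group was the lowest and lay under the floor of 3 counts in both libraries, while the 2 WT control libraries differed by 4.47-fold. The mean level was 0.507 CPM in WT and 0.191 CPM in Unc93b1 3d/3d libraries, a difference of 0.316 CPM (two-sided exact permutation test within treatment, p = 0.167, the smallest possible p being 0.0556). The mean was 0.258 CPM with αMARCO and 0.440 CPM in controls, a difference of -0.182 CPM (exact permutation test within genotype, p = 0.389). Neither difference could reach an exact p of 0.05 in this design.

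Summed over the 2 libraries of a group, Marco had 20 counts in WT and 3 in Unc93b1 3d/3d mice under αMARCO, a ratio of the counting rates of 5.36 (95% exact binomial interval 1.59 to 28.1). In controls the sums were 21 and 11, a ratio of 1.84 (0.847 to 4.22). αMARCO over control gave 0.762 in WT (0.392 to 1.48) and 0.262 in Unc93b1 3d/3d (0.0469 to 0.991). Without replicate 1 or replicate 2 of Unc93b1 3d/3d αMARCO, the ratio between genotypes under αMARCO was 6.32 (1.01 to 262) or 4.87 (1.18 to 43.0). The ratio of αMARCO over control in Unc93b1 3d/3d was then 0.222 (0.00515 to 1.53) or 0.288 (0.0310 to 1.32), both intervals including 1. These intervals compare the sequenced libraries, not the conditions. Marco did not pass edgeR's filter on low counts, and without the filter its adjusted p was 0.622 for genotype in controls, 0.800 for genotype under αMARCO, 0.768 for αMARCO in WT and 0.873 for αMARCO in Unc93b1 3d/3d TAMs. By comparison, the class A receptor Msr1 had 8143 to 16157 counts per library, and its mean FPKM was 560.4-fold that of Marco.

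**Figure D2:**
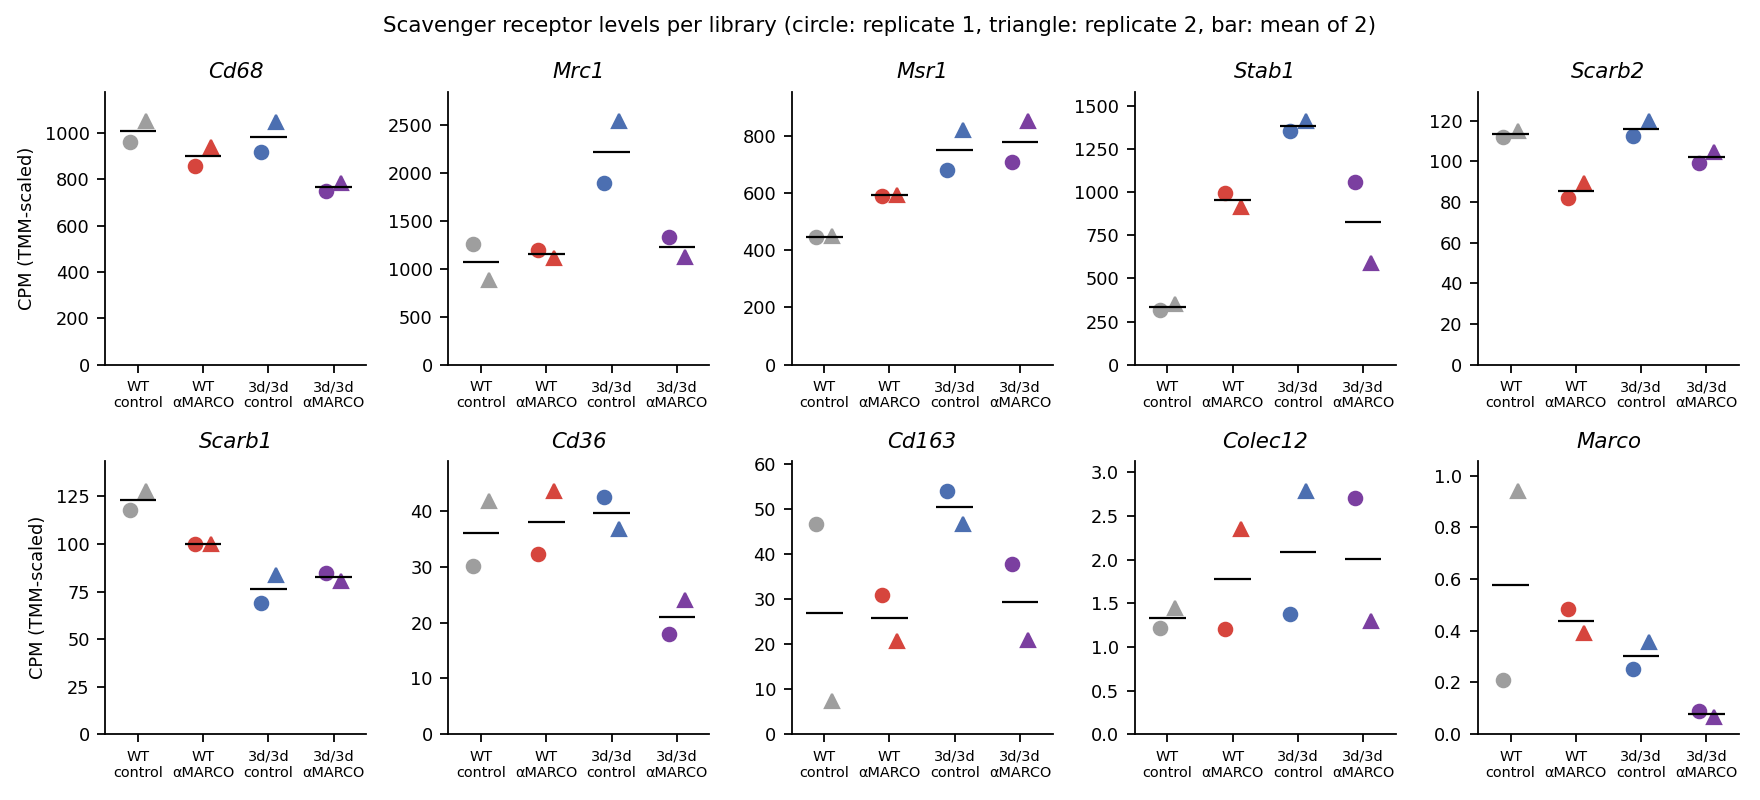
CPM of each scavenger receptor in the 4 groups (circles: replicate 1, triangles: replicate 2, bars: mean of 2 libraries; 3d/3d: Unc93b1 3d/3d). Stab1 is at 319.5 and 354 CPM in WT control and between 592 and 1414 CPM in the other 6 libraries, whereas Cd68 stays between 750.4 and 1051 CPM.

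Stab1 (ENSMUSG00000042286, chr14:31139013-31168641, minus strand) encodes stabilin-1, an endocytic receptor for oxidized lipoprotein and the matrix protein SPARC. It was at 319.5 and 354 CPM in WT control libraries, the 2 lowest of the 8. Unc93b1 3d/3d control libraries held 1356 and 1414 CPM, the 2 highest, and replicates of both groups were within 1.11-fold. WT αMARCO libraries held 993 and 914 CPM, and Unc93b1 3d/3d αMARCO libraries 1058 and 592 CPM. Thus WT control stood apart from all other groups, and the widest gap between replicates was in Unc93b1 3d/3d αMARCO. In control TAMs, Stab1 was 4.16-fold lower in WT (log2 fold change -2.06, SE 0.11, edgeR adjusted p = 7.00e-06). In WT TAMs, Stab1 rose 2.84-fold with αMARCO (log2 fold change 1.504, SE 0.10, adjusted p = 4.12e-05). Under αMARCO, the genotypes did not differ beyond the test (log2 fold change 0.19, SE 0.35, adjusted p = 0.844).

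Calls required both an edgeR adjusted p no higher than 0.05 and a change of 0.5 or more in either direction on the log2 scale. In control TAMs, edgeR called 4 of the 9 members tested, 3 lower and 1 higher in WT, against 13% of 15600 genes tested, of which 6.4% were lower and 6.58% higher. Stab1, Mrc1 and Msr1 were lower in WT, and Scarb1 was higher. The libraries of the 2 groups did not overlap for 4 of the 9 members, against 63.1% of all genes tested. The median log2 fold change of the 9 members was -0.68, and that of all genes -0.0036. In 1 model of all 8 libraries, where 2.19% of 16620 genes were called, Stab1 alone of the members stayed called in controls (adjusted p = 0.0109), with adjusted p of 0.0630 for Scarb1, 0.0704 for Mrc1 and 0.0728 for Msr1.

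Among the class A receptors, Msr1 (ENSMUSG00000025044, chr8:39581685-39642673, minus strand), which binds acetylated lipoprotein, was at 445 and 451 CPM in WT control and at 680.3 and 819 CPM in Unc93b1 3d/3d control libraries. It was 1.69-fold lower in WT (log2 fold change -0.76, SE 0.11, adjusted p = 0.00260). WT αMARCO libraries were at 589.9 and 594 CPM, above both WT control libraries, and Unc93b1 3d/3d αMARCO libraries were at 708 and 853 CPM. In WT TAMs the difference with αMARCO was 0.40 on the log2 scale (SE 0.08, adjusted p = 0.00485), which lies under the fold threshold. All 4 WT libraries were below all 4 Unc93b1 3d/3d libraries for Msr1. Within αMARCO the genotype difference of -0.41 (SE 0.21) did not pass the test (adjusted p = 0.709). Colec12 (ENSMUSG00000036103), a collectin with a class A domain layout that is known from endothelium, ranged from 1.21 to 2.79 CPM with overlapping groups and passed no test.

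Mrc1 (ENSMUSG00000026712, chr2:14229392-14332057, plus strand) takes up mannose-bearing glycoproteins. It was at 1254 and 883 CPM in WT control and at 1898 and 2543 CPM in Unc93b1 3d/3d control libraries. WT αMARCO libraries were at 1191 and 1116 CPM and Unc93b1 3d/3d αMARCO libraries at 1335 and 1121 CPM, so that only the Unc93b1 3d/3d control group stood above the others. In control TAMs Mrc1 was 2.10-fold lower in WT (log2 fold change -1.07, SE 0.20, adjusted p = 0.0130), and without replicate 2 of the Unc93b1 3d/3d control group it did not pass (adjusted p = 0.0589). Unlike Stab1, Mrc1 did not pass the test for αMARCO in WT TAMs, with a log2 fold change of 0.11 (SE 0.16, adjusted p = 0.613). The difference of the αMARCO effects on the 2 genes was not tested.

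The class B receptors were lower in level. Scarb1 (ENSMUSG00000037936, chr5:125277087-125341094, minus strand), the receptor for high-density lipoprotein, was at 118 and 128 CPM in WT control and at 68.8 and 83.9 CPM in Unc93b1 3d/3d control libraries. It was 1.59-fold higher in WT (log2 fold change 0.67, SE 0.11, adjusted p = 0.00461) and was the only tested member called higher in WT. αMARCO libraries were at 100.2 and 100.2 CPM in WT and at 84.8 and 80.7 CPM in Unc93b1 3d/3d mice, so the 4 WT libraries were all above the 4 Unc93b1 3d/3d libraries. Scarb2 (ENSMUSG00000029426, chr5:92441314-92506833, minus strand), which carries glucocerebrosidase to the lysosome, was at 112 and 115 CPM in WT control, at 112 and 119.9 CPM in Unc93b1 3d/3d control, at 81.8 and 89.2 CPM in WT αMARCO and at 99.3 and 105 CPM in Unc93b1 3d/3d αMARCO libraries. Its αMARCO libraries were below the control libraries in both genotypes. In WT TAMs, Scarb2 and Scarb1 passed the adjusted p but not the fold threshold (log2 fold changes -0.41 and -0.30, adjusted p = 0.00348 and 0.0162).

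Cd36 (ENSMUSG00000002944, chr5:17781690-17888801, minus strand) takes up oxidized lipoprotein and long-chain fatty acids. It was at 30.2 and 41.9 CPM in WT control, 42.5 and 36.8 CPM in Unc93b1 3d/3d control and 32.4 and 43.7 CPM in WT αMARCO libraries. Unc93b1 3d/3d αMARCO libraries were at 17.9 and 24 CPM, the 2 lowest of the 8. αMARCO minus control in Unc93b1 3d/3d TAMs was -0.91 on the log2 scale (SE 0.26), with an unadjusted p of 0.0117 and an edgeR adjusted p of 0.823. Under αMARCO, WT minus Unc93b1 3d/3d was 0.85 (SE 0.25, adjusted p = 0.642). Neither passed in edgeR or in DESeq2 (adjusted p = 0.376 and 0.309). Without replicate 1 or without replicate 2 of the Unc93b1 3d/3d αMARCO group, both differences were called, at -0.72 and -1.12 for αMARCO and at 0.67 and 1.06 for genotype, in fits that called 34.1% and 3.41% of all genes for αMARCO and 38.6% and 7.45% for genotype.

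Cd163 (ENSMUSG00000008845, chr6:124304656-124330527, plus strand), which clears hemoglobin bound to haptoglobin, had the widest gap between the replicates of WT control among the tested members. WT control libraries were at 46.8 and 7.31 CPM, a 6.39-fold gap, and Unc93b1 3d/3d control libraries at 54.2 and 46.7 CPM. WT αMARCO libraries were at 30.9 and 20.7 CPM and Unc93b1 3d/3d αMARCO libraries at 37.9 and 20.9 CPM. No comparison of Cd163 passed the test, and both comparisons with WT control depended on which WT control library was kept. Without replicate 1 of WT control, its log2 fold change was -2.79 for WT minus Unc93b1 3d/3d in controls and 1.81 for αMARCO in WT. Without replicate 2 these were -0.12 and -0.87. Such fits leave 1 library of WT control, so the spread of that group is not measured there. In the same 2 WT control libraries, the sum of 8 classical monocyte markers was 1106 and 625 CPM, against 1016 to 1430 CPM in the other 6 libraries. Within that list Chil3 was at 133 and 19.2 CPM and Ly6c2 at 144 and 129 CPM. The part of monocytes in the Cd163 values was not tested.

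Cd68 (ENSMUSG00000018774, chr11:69664213-69666153, minus strand) was the steadiest of the abundant members. It was at 962 and 1051 CPM in WT control, 917 and 1048 CPM in Unc93b1 3d/3d control, 858 and 941 CPM in WT αMARCO and 750.4 and 782 CPM in Unc93b1 3d/3d αMARCO libraries. Its highest FPKM was 1.39-fold its lowest, compared with 4.47-fold for Stab1 and 2.91-fold for Mrc1. WT minus Unc93b1 3d/3d in controls was 0.02 on the log2 scale (SE 0.11, adjusted p = 0.928), and αMARCO minus control was -0.16 in WT (SE 0.10, adjusted p = 0.216) and -0.35 in Unc93b1 3d/3d TAMs (SE 0.26, adjusted p = 0.823).

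**Figure D3:**
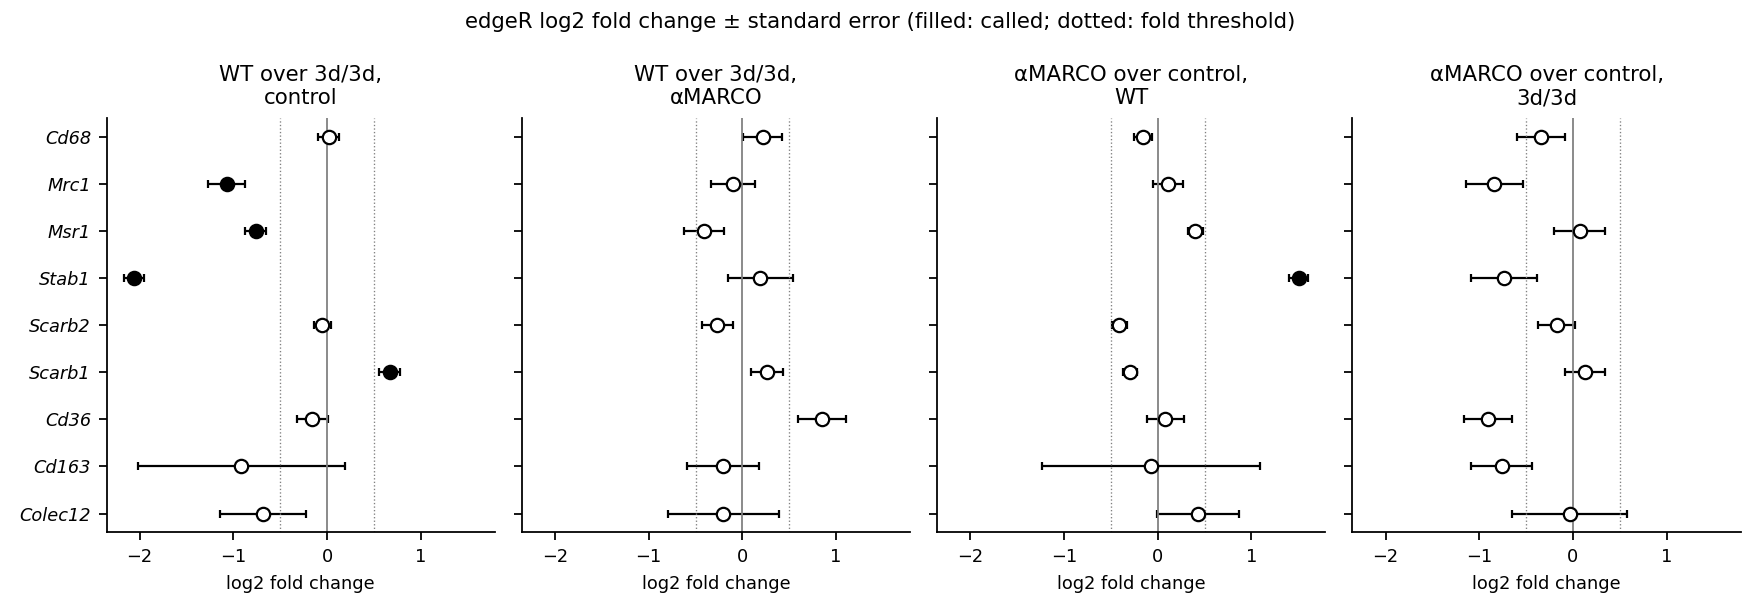
Log2 fold change ± standard error from edgeR for the 9 tested members in the 4 comparisons (2 libraries a group; filled points: called; dotted lines: the fold threshold of 0.5 in either direction; 3d/3d: Unc93b1 3d/3d). Stab1 is called at -2.06 for genotype in controls and at 1.504 for αMARCO in WT, and no point is filled in the 2 comparisons that include Unc93b1 3d/3d αMARCO.

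In WT TAMs, αMARCO minus control thus called 1 of 9 members, Stab1, which was higher, against 20.7% of 15630 genes tested and 8.91% called higher. The libraries of the 2 groups did not overlap for 5 of the 9 members, against 70.8% of genes. On the adjusted p alone, 4 members passed, Msr1, Stab1, Scarb1 and Scarb2, against 35.1% of genes. The median log2 fold change was 0.08 for the members and -0.01 for all genes. The comparison shares the 2 WT control libraries with that of genotype in controls, so the 2 sets of values are not independent. In the model of all 8 libraries, Stab1 had a log2 fold change of 1.496 for αMARCO in WT with an adjusted p of 0.0503, and 0 members and 0.987% of genes were called.

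In Unc93b1 3d/3d TAMs, αMARCO minus control called 0 of 9 members, against 0% of 15428 genes tested. The libraries did not overlap for 6 of the 9 members, against 39% of genes. At an unadjusted p of at most 0.05, 2 members passed, Cd36 and Mrc1, against 4.82% of genes, and DESeq2 called 0 members and 60 genes. Mrc1 had a log2 fold change of -0.84 (SE 0.31, unadjusted p = 0.0329, edgeR adjusted p = 0.823), with both αMARCO libraries below both control libraries. Stab1 had -0.73 (SE 0.35) and Cd163 -0.76 (SE 0.33), likewise with an adjusted p of 0.823. The median over the 9 members was -0.35, and over all genes 0.03. Without replicate 1 of Unc93b1 3d/3d αMARCO, 4 members were called lower with αMARCO, Cd163 (-1.27), Cd36, Mrc1 (-0.98) and Stab1 (-1.22), in a fit that called 34.1% of 16110 genes. Without replicate 2, Cd36 and Mrc1 (-0.71) were called, Cd163 (-0.39) and Stab1 (-0.36) were not, and 3.41% of 16754 genes were. The other 5 tested members lay between -0.69 and 0.39 and were called in neither fit.

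Under αMARCO, WT minus Unc93b1 3d/3d called 0 of 9 members, against 0% of 15722 genes tested. The libraries did not overlap for 5 of the 9 members, against 43.7% of genes. Cd36 was the 1 member with an unadjusted p of at most 0.05, against 6.84% of genes, and DESeq2 called 0 members and 215 genes. Without replicate 1 of Unc93b1 3d/3d αMARCO, 38.6% of 16500 genes were called, and without replicate 2, 7.45% of 16795 genes. Stab1 was called at 0.69 in the first of these fits and was at -0.18 in the other (adjusted p = 0.413), so its sign rests on which library is kept. Msr1 was called at -0.52 in the first and was at -0.29 in the other (adjusted p = 0.0927). Besides Cd36, the other 6 tested members lay between -0.62 and 0.47 and were called in neither. Marco, tested in these fits, had log2 fold changes of 2.57 and 2.20 with adjusted p of 0.181 and 0.355.

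Whether αMARCO acted differently in the 2 genotypes was tested in 1 model of all 8 libraries. For Stab1 the effect in WT exceeded that in Unc93b1 3d/3d TAMs by 2.23 on the log2 scale (SE 0.38, unadjusted p = 0.000334), and the edgeR adjusted p over 16620 genes was 0.281. Cd36 (0.99, SE 0.33) and Mrc1 (0.95, SE 0.34) had unadjusted p of 0.0164 and 0.0214 and an edgeR adjusted p of 0.318 each. The remaining 6 tested members had unadjusted p of 0.0740 or more. edgeR called 0 members and 0 genes, with 3 of 9 members and 15.3% of genes at an unadjusted p of at most 0.05. DESeq2 called 208 genes, and Stab1 was the 1 member among them (adjusted p = 4.18e-06). Adjusted p for Stab1 ranged from 9.37e-08 to 0.656 over 13 alternatives, of which 4 called it, and the difference ranged from 1.85 to 2.73. Without replicate 1 of Unc93b1 3d/3d αMARCO, Stab1 (2.73) and Mrc1 (1.10) were called, in a fit that called 36.4% of 17701 genes. Without replicate 2, Stab1 (1.85) was called and Mrc1 (0.80) was not, with 3.45% of 17724 genes called. Cd36 was at 0.80 and 1.19 in these fits (adjusted p = 0.0609 and 0.0732), and the other 6 tested members lay between -0.49 and 1.20 and were called in neither.

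Marker genes of other cells differed between the same groups. The summed level of 10 dendritic cell markers, among them Flt3 and Ccr7, was 902 and 495 CPM in WT control and 113 to 160 CPM in the other 6 libraries. Most of the WT control sums came from Ccr7 (214 and 119 CPM), Fscn1 (288 and 153 CPM) and Ccl22 (184 and 79.1 CPM). Flt3, Zbtb46, Xcr1 and Batf3 were also highest in both WT control libraries. Clec9a (1.42 and 2.16 CPM), Cd209a (35.9 and 12.7 CPM) and Dpp4 (33.6 and 21.2 CPM) overlapped with the other libraries, which reached 1.86, 13.5 and 24.3 CPM. The sum of 16 T cell markers was 171 and 191 CPM in WT control, 78.0 to 98.0 CPM in Unc93b1 3d/3d control and 17.5 to 35.2 CPM in αMARCO libraries. Cd4, which macrophages can also express, was at 18.7 and 22.0 CPM in WT control and made up most of the sum in Unc93b1 3d/3d control, at 61.6 and 62.2 CPM. Without Cd4 the sums were 153 and 169 CPM in WT control, 36.4 and 15.8 CPM in Unc93b1 3d/3d control and 10.4 to 24 CPM in αMARCO libraries. Cd8a, a T cell co-receptor, was at 15.7 and 20.3 CPM in WT control and at 0.133 to 1.32 CPM elsewhere. The WT control group was thus both the lowest in Stab1 and the highest in the sums of dendritic and T cell markers, though not in every marker. The sum of 11 endothelial markers, cells that also express stabilin-1, was 300.3 and 305 CPM in WT control and 121 to 150 CPM in Unc93b1 3d/3d control libraries. This order rested on Pecam1, which blood cells also express, at 203 and 199 CPM against 28.9 and 24.1 CPM. Without Pecam1 the sums were 97.5 and 107 CPM in WT control and 121 and 97.2 CPM in Unc93b1 3d/3d control, with no separation of the groups. Lyve1 was lower in WT control, at 3.85 and 5.43 CPM against 15.8 and 9.53 CPM, in the direction of Stab1. Vwf was also lower, at 8.12 and 7.53 CPM against 8.72 and 13.2 CPM. Tek, Cldn5, Esam, Egfl7 and Emcn, like Pecam1, went the other way and were higher in WT control. Of these, Egfl7 reached at most 2.26 CPM, and Cldn5 and Emcn at most 0.738 and 0.222 CPM. Cdh5, Kdr and Tie1 overlapped between the 2 control groups. In bulk samples, fewer cells of a type and less RNA per cell cannot be told apart, and the part of these cells in the receptor values was not tested.

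**Figure D4:**
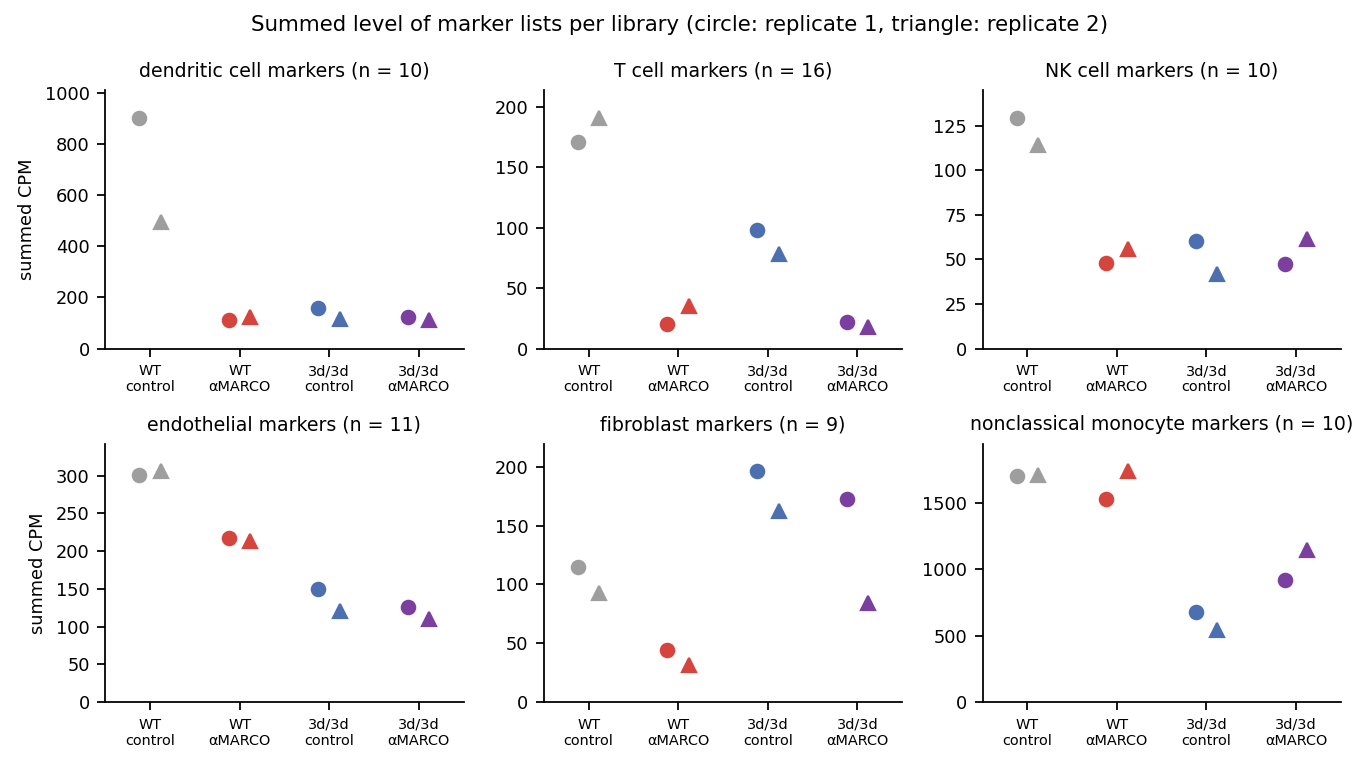
Summed CPM of 6 marker lists in each library (circles: replicate 1, triangles: replicate 2; n: genes in the list; 3d/3d: Unc93b1 3d/3d). Dendritic cell markers are at 902 and 495 CPM in WT control and at 113 to 160 CPM in the other 6 libraries.

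Exons of Stab1 overlap those of Nt5dc2 on the other strand, and whether the counting used strand is not given in the sources used here. Nt5dc2 was at 43.1 to 80.8 CPM, below Stab1 in every library. Exons of the other 9 members overlap those of no other annotated gene.

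A further list of 20 scavenger receptors was read beside the members. In control TAMs 17 were tested, of which 4 were higher in WT (Clec7a, Ly75, Scarf1 and Scarf2) and 3 lower (Lrp1, Scara3 and Scara5), against 6.58% and 6.4% of all genes, with a median log2 fold change of 0.28 against -0.0036 over all genes. With αMARCO in WT TAMs, 2 of 17 rose (Cxcl16 and Lrp1) and 6 fell (Cd163l1, Ly75, Mrc2, Scara3, Scara5 and Scarf2), against 8.91% and 11.8% of all genes, with a median of 0.10 against -0.01. None was called in the other comparisons by edgeR, in which 0% of all genes were. Lrp1, an endocytic receptor for apolipoprotein E and protease complexes, was at 1110 and 1248 CPM in WT control, 2033 and 2091 CPM in Unc93b1 3d/3d control, 2026 and 1988 CPM in WT αMARCO and 1534 and 762 CPM in Unc93b1 3d/3d αMARCO libraries. Both WT control libraries were below those of Unc93b1 3d/3d control and of WT αMARCO, and replicate 2 of Unc93b1 3d/3d αMARCO was the lowest. αMARCO minus control in WT was 0.77 (SE 0.10, adjusted p = 0.000694). Ly75, the dendritic cell receptor DEC-205, was at 38.4 and 23.3 CPM in WT control, 8.47 and 7.96 CPM in Unc93b1 3d/3d control and 2.22 to 4.93 CPM in αMARCO libraries, and fell by 3.53 on the log2 scale with αMARCO in WT (SE 0.29, adjusted p = 0.000407). It was highest where the dendritic cell marker sum was highest. Scara3, an intracellular class A protein of the oxidative stress response, was at 8.54 and 5.82 CPM in WT control and 12.4 and 13.9 CPM in Unc93b1 3d/3d control libraries (log2 fold change -0.89, SE 0.23, adjusted p = 0.0251).

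**Figure D5:**
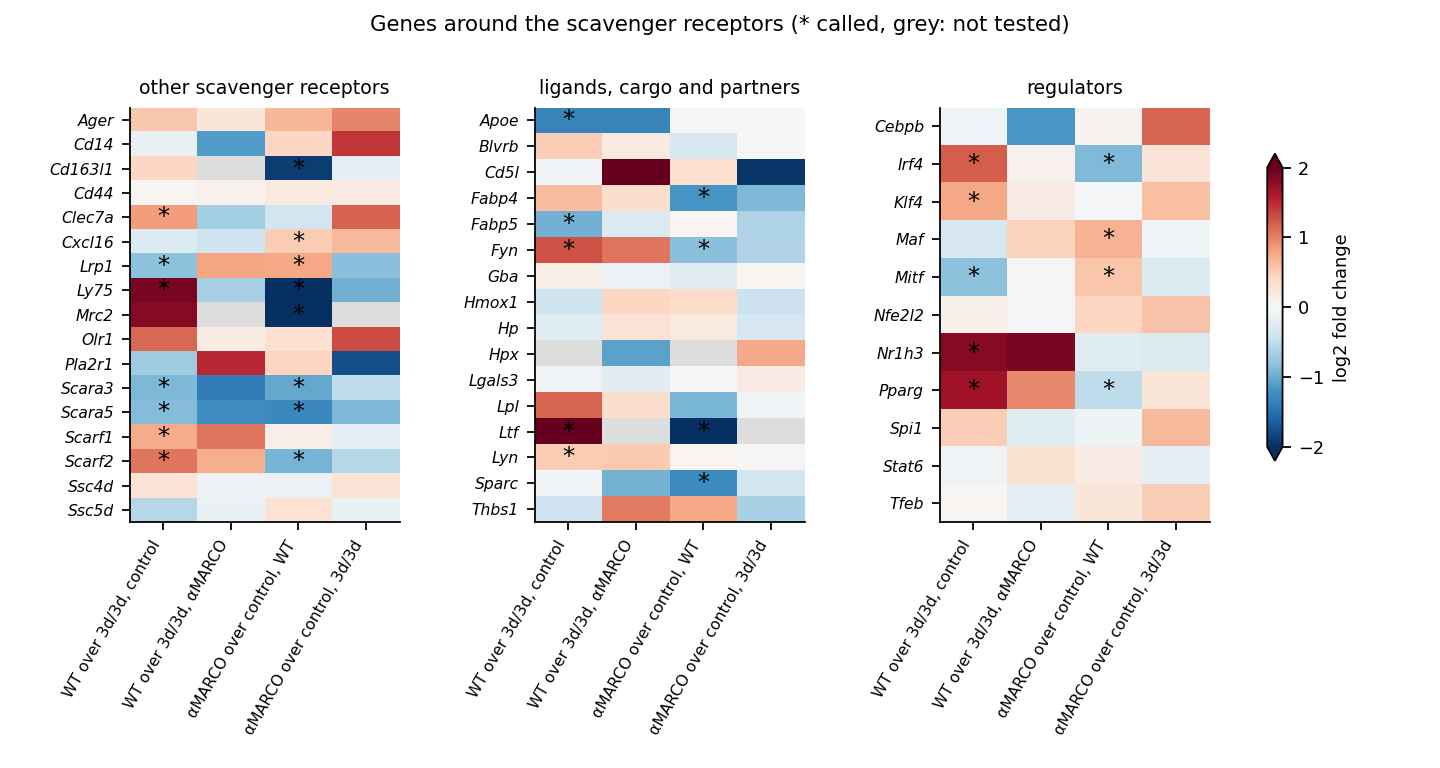
Log2 fold change (color, limited to 2 in either direction) of other scavenger receptors, of ligands, cargo and partners, and of regulators in the 4 comparisons (asterisk: called; grey: not tested; 3d/3d: Unc93b1 3d/3d). Asterisks stand only in the columns for genotype in controls and for αMARCO in WT.

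Of 18 ligands, cargo proteins and partners of the receptors, 15 were tested in control TAMs. WT TAMs held more Fyn, Lyn and Ltf, and less Apoe and Fabp5, which is 3 higher and 2 lower against 6.58% and 6.4% of all genes. Apoe, a lipid carrier, was at 2479 and 2509 CPM in WT control and 5606 and 6789.9 CPM in Unc93b1 3d/3d control libraries (log2 fold change -1.33, SE 0.13, adjusted p = 0.000269), and reached 8465 CPM in replicate 2 of Unc93b1 3d/3d αMARCO. With αMARCO in WT TAMs, 4 of 15 fell, namely Fabp4, Fyn, Ltf and Sparc, against 11.8% of all genes, and 0 rose, against 8.91%. Ltf, the neutrophil granule protein lactoferrin, was at 4.38 and 5.37 CPM in WT control and at 0 to 1.0 CPM elsewhere. The medians were -0.05 and -0.04 in the 2 comparisons, against -0.0036 and -0.01 over all genes.

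Of 11 transcriptional regulators, all were tested. In control TAMs, Irf4, Klf4, Nr1h3 and Pparg were higher and Mitf lower in WT, 4 and 1 of 11 against 6.58% and 6.4% of all genes, with a median of 0.10 against -0.0036. Nr1h3, the oxysterol receptor LXRα, was at 149 and 217 CPM in WT control and 42.6 and 59.8 CPM in Unc93b1 3d/3d control libraries (log2 fold change 1.82, SE 0.24, adjusted p = 0.00940). It stayed at 154 and 156 CPM in WT αMARCO and at 36.2 and 47.3 CPM in Unc93b1 3d/3d αMARCO libraries, so the 4 WT libraries were above the 4 others. Mitf, a regulator of lysosomal genes, was at 27.1 and 35.8 CPM in WT control and 56.1 and 53.7 CPM in Unc93b1 3d/3d control libraries (log2 fold change -0.82, SE 0.14, adjusted p = 0.00490). With αMARCO in WT, Maf and Mitf rose and Irf4 and Pparg fell, 2 each of 11 against 8.91% and 11.8% of all genes, with a median of 0.05 against -0.01. Maf, a macrophage transcription factor, went from 472 and 525 CPM to 760.4 and 858 CPM (log2 fold change 0.70, SE 0.10, adjusted p = 0.000806). Irf4 went from 17.6 and 13.7 CPM to 9.47 and 7.52 CPM (log2 fold change -0.89, SE 0.19, adjusted p = 0.00606). No ligand, partner or regulator tested was called by edgeR in the comparisons that include Unc93b1 3d/3d αMARCO.

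Among 9054 genes with a mean of at least 10 CPM, the pattern over the 8 libraries most like that of Stab1 was shown by Zscan29 (Pearson r = 0.988 of log2 CPM) and Osbpl8 (0.983). For Mrc1 these were Npl (0.970), Nid2 (0.966) and Nectin4 (0.963), for Msr1 Mvb12b (0.970), Cep131 (0.964) and Trim47 (0.956), and for Cd36 Slc40a1 (0.941), Pkm (0.933) and Fam78a (0.928). These are descriptions over 8 libraries that share depth and group. The leading genes differed between the 4 receptors.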

How the data were processed

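The authors cleaned poly-A RNA-seq reads with fastp, aligned them to GRCm38 with HISAT2 2.0.5, obtained gene counts with featureCounts 1.5.0 and ran DESeq2 1.40.2, as listed in the submitters' processing notes and the methods. The 3 tables deposited by the authors hold raw counts per gene, with no normalization, for 2 groups each. The authors also deposited FPKM, which correct the counts for gene length and for an adjusted total of the library. That total was 0.909 to 1.05 of the summed counts, by library. A size factor-normalized signal was also deposited and was not used, nor were the fold changes and p-values of their own comparisons. Joining the tables on the identifiers gave 26939 genes, and 0 of 95230 repeated counts differed. Genes that a table lacks were set to 0 there, and had at most 1 count where this could be checked.

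Counts were tested with the quasi-likelihood test of edgeR 4.0.16 in R 4.3.3 (TMM, filterByExpr, robust dispersion), separately for the 4 libraries of each comparison, and for the difference of treatment effects in a model of all 8, with Benjamini-Hochberg adjustment over all genes tested. Marco was tested with an exact permutation test on CPM. CPM used TMM factors over all 8 libraries, and log2 CPM a prior count of 2. On simulated data, 200 genes were changed by a log2 fold change of 2. Of these, 99.5% were recovered for genotype in controls (15189 genes) and 86.5% for the difference of effects (16134 genes). False calls were 24 and 13, or 10.8% and 6.99% of the calls, both above the rate of 0.05 set by the adjusted p. The recovered shares hold for simulated libraries only. In the real data, the Unc93b1 3d/3d αMARCO replicates lay 131.6 apart, against 56.2 to 74.6 in the other groups. The main edgeR fit called 0 of 16620 genes for the difference. The 86.5% therefore does not show what share of real differences of effects this test could find. Alternatives were DESeq2 1.42.0, its size factors, other filters and fold thresholds, 1 model of all libraries, a replicate block and each library left out. The text names the members, the called gene with the largest change in each direction of each related list whose libraries do not overlap, the genes most correlated with each of 4 receptors (up to 3), and a few genes chosen after their values were seen (markers and Nt5dc2). The members and lists were chosen with earlier results of these data known. Some genes are not reported here. The labels give no sequencing batch. The scRNA-seq was not analysed here.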

Additional observations from a re-analysis of the deposited data

Results flagged for a closer look

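For Stab1, the αMARCO libraries lay on opposite sides of the control libraries in the 2 genotypes. The log2 effect in WT minus that in Unc93b1 3d/3d TAMs was 2.23 (SE 0.38). In their own comparisons the effects were 1.504 in WT (edgeR adjusted p = 4.12e-05) and -0.73 in Unc93b1 3d/3d TAMs (0.823). Both WT αMARCO libraries lay above both WT control libraries, and both Unc93b1 3d/3d αMARCO libraries lay below both Unc93b1 3d/3d control libraries. In edgeR's test of the difference itself the adjusted p over 16620 genes was 0.281. Of 13 alternatives, 4 called it. DESeq2 did (adjusted p = 4.18e-06), with 1.25% of all genes called, and so did the edgeR fit without a filter on low counts (0.000168), with 0.564%. The others were the fits without replicate 1 or replicate 2 of Unc93b1 3d/3d αMARCO, where the difference was 2.73 or 1.85. These leave 1 library in that group, so its spread is not measured there. The other 9, among them the replicate block (0.319), gave adjusted p of 0.262 to 0.656. The cause was not tested.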

How the results depend on the processing

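Of 261 values for single members under alternatives other than leaving out a library, 254 kept their direction and their side of the threshold. With a library left out, 178 of 216 values kept both, and 23 turned their direction. Both counts include the comparisons in which the main edgeR fit called 0 genes. In 1 model of all 8 libraries, 1 member was called for genotype in controls (Stab1), with 2.19% of all genes. For αMARCO in WT that model called 0 members (Stab1 at 1.496, edgeR adjusted p = 0.0503), with 0.987% of all genes. The edgeR fits of 4 libraries called 4 and 1 members, with 13% and 20.7% of all genes. A fold threshold of 1 left 2 members called in controls (Mrc1 and Stab1), with 6.1% of all genes. No fold threshold gave 4 members for αMARCO in WT, with 35.1% of all genes. For the difference of effects, DESeq2 and the fit without a filter each called 1 member (Stab1), with 1.25% and 0.564% of all genes. Deviations from the group mean correlated at -0.08 to 0.14 between libraries of the same replicate number. The labels do not say whether such libraries were processed together. The replicate block called 4 members in controls (15.4% of all genes) and 1 for αMARCO in WT (19.7%). It turned the sign of 1 value, Cd163 for αMARCO in WT, to 0.33.

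With each library left out, the members called ranged from 3 to 5 for genotype in controls (9.06% to 13.3% of all genes), 0 to 3 for genotype under αMARCO (0.102% to 38.6%), 1 to 2 for αMARCO in WT (11.8% to 23.6%), 0 to 4 for αMARCO in Unc93b1 3d/3d (0.00609% to 34.1%) and 0 to 2 for the difference (0% to 36.4%). Where the sign turned, log2 fold changes ranged as follows. Genotype in controls gave -0.40 to 0.073 for Cd36 and -0.071 to 0.11 for Cd68. Genotype under αMARCO gave -0.59 to 0.31 for Cd163, -0.18 to 0.69 for Stab1, -0.24 to 0.049 for Mrc1 and -0.74 to 0.47 for Colec12. αMARCO in WT gave -1.11 to 1.02 for Marco, which passed the filter only with a library left out, -0.14 to 0.33 for Cd36, -0.87 to 1.81 for Cd163, -0.12 to 0.38 for Mrc1 and -0.12 to 0.82 for Colec12. αMARCO in Unc93b1 3d/3d gave -0.058 to 0.21 for Msr1, -0.0043 to 0.28 for Scarb1 and -0.69 to 0.56 for Colec12. The difference gave -0.11 to 2.57 for Cd163 and -0.15 to 1.13 for Colec12. Each fit with a library left out leaves 1 library in a group, so the spread of that group is not measured there. The causes were not tested. The order of the 10 levels was the same by CPM per kilobase, and the Marco differences kept their direction on counts over the library total (0.307 and -0.188), a test that could not pass at this size. Marco and Colec12 had few counts, at most 17 and 61 in a library, and their replicates differed by up to 4.47-fold and 2.08-fold.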
